A study of Mus musculus with 16 samples.

Results

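The 36 genes described here encode the proton pump of the lysosome, 8 of its digestive enzymes, 3 other luminal proteins, 6 membrane proteins and 3 transcription factors that act on lysosomal genes. They were taken by symbol from a count table of 55356 genes. The rule itself used no measured value, but the genes were chosen with earlier results of these data known. All 36 were in the table and all 36 passed the filter on low counts. The tissue was sectioned brachiocephalic artery, the first vessel off the aortic arch and a common site of plaques in hypercholesterolaemic mice. All 16 mice were female, lacked Apoe and ate a cholesterol-rich Western-type diet (0.2% cholesterol, 21.2% fat) that started at 6 weeks of age. Apoe-/- and Apoe-/-Mif-/- mice, the latter also without macrophage migration inhibitory factor, were sampled after 24 or 42 weeks on that diet, at 30 or 48 weeks of age, with 4 mice in each of the 4 groups. Time on the diet and age therefore cannot be told apart, and no group on chow was analysed here. By its title, the series concerns how aging bears on the atheroprotection seen in mice that lack Mif.

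The vacuolar ATPase is a rotary pump that spends ATP to move protons into the lysosome. Its V1 sector lies in the cytosol and splits ATP, its V0 sector sits in the membrane and carries the protons, and the acid that it makes is needed by most lysosomal hydrolases. In plaques, macrophages that have taken up lipoproteins use lysosomal acid lipase and the Niemann-Pick proteins to free and export cholesterol from the lysosome. The factors TFEB, TFE3 and MITF bind short E-box-like motifs built around CACGTG, often called CLEAR elements, in front of many lysosomal genes.

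Lysates of 3 to 4 whole-vessel sections (5 µm thick) of a mouse were combined before Smart-seq2 amplification of 1 ng RNA, a method that keeps no strand and uses no molecular identifiers. The libraries held 378066 to 8649518 counts, with a median of 3124280, and the 36 genes took 0.734% to 2.28% of them. Library 1 of Apoe-/- mice at 42 weeks and library 2 of Apoe-/-Mif-/- mice at 42 weeks held under 1000000 counts. Mif was at 22.5 to 292 CPM (counts per 1000000 of the TMM-scaled library) in the 8 libraries labelled as having the gene and at 2.32 to 19.3 CPM in the 8 labelled as lacking it. Apoe, which all libraries are labelled as lacking, was at 1090 CPM in library 4 of Apoe-/- mice at 42 weeks. In the other 15 it was at 2.5 to 188 CPM. Acta2, the smooth muscle actin of the vessel wall, was at 413 to 11700 CPM, whereas Tagln, another smooth muscle marker, was at 0 to 45 CPM. All 4 Apoe-/-Mif-/- libraries of the 24-week group have a letter in their label codes that no other library has, and what the codes stand for is not given in the sources used here. Libraries 1 and 4 of the Apoe-/- mice at 24 weeks stood apart from the rest of their group: 7 summed brown fat markers were at 15200 and 3440 CPM there and at 52.1 and 201 CPM in libraries 2 and 3, and 10 striated muscle markers were at 4960 and 2630 against 68.4 and 81.1 CPM. Mitochondrial transcripts made up 10.2% and 6.31% of their counts against 0.751% and 1.08%. Brown fat markers were also at 4960 and 2140 CPM in libraries 2 and 4 of the Apoe-/-Mif-/- mice at 42 weeks, with mitochondrial shares of 7.3% and 8.64%. Library 4 of the 24-week Apoe-/- mice also carried T cell markers, 10 genes summing to 5280 CPM against 4.91 to 311 CPM in the other 15 libraries, and 18 macrophage markers summed to 2190 and 3820 CPM in its libraries 1 and 4 against 9480 to 37900 CPM in the other 14. Some of the counts, medians and fold changes that rest on this group are given with and without the pair, and the others are given only with it. In such bulk samples, fewer cells of a type and less RNA per cell cannot be told apart.

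Of the 36 genes, 29 had an entry in a table of RefSeq promoters (build GRCm38.p6, 250 bases before to 50 after the start site), and 9 of these 29 (31%) held CACGTG on either strand. The same letters were in 8.09% of the 27025 promoters of the table. The longer TCACGTG, which contains CACGTG and was counted on both strands, was in the same 9 genes against 4.29% of all promoters. The palindrome TCACGTGA, which contains both, was in 5 of 29 (17.2%) against 1.12%. With a further G before it and a further C after it, this palindrome was in 0 of 29, against 0.37% of all promoters. That last share is too small to be told from 0 in 29 promoters. The 9 genes were the pump genes Atp6v0b, Atp6v0d1, Atp6v0e and Atp6v1a, the hydrolases Gaa, Gla and Glb1, and the membrane proteins Lamp1 and Mcoln1. A single site from each of 4 genes is shown with capitals on the motif that was searched for, to give the flanking bases in pump, hydrolase and membrane genes. They lie 132 bases (Atp6v1a, chr16:44139372-44139403, minus strand), 49 bases (Glb1, chr9:114401017-114401047, plus strand), 228 bases (Gla, chrX:134601214-134601245, minus strand) and 62 bases (Lamp1, chr8:13159087-13159117, plus strand) before the start site.
Atp6v1a: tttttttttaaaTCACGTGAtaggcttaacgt
Glb1: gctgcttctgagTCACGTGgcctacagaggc
Gla: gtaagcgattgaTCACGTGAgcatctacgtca
Lamp1: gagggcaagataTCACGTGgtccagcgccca

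The 250 bases in front of Mcoln1 (chr8:3500269-3500518, plus strand, GRCm38.p6) are printed because this gene showed the widest gap between groups in the values that follow. They hold 2 such sites, 72 and 46 bases before the start, in capitals.
Mcoln1: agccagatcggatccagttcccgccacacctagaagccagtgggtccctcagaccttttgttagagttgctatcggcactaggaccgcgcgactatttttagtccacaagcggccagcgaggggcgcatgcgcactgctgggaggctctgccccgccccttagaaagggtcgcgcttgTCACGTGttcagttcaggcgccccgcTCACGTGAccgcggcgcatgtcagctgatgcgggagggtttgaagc
A match of letters is a description of the sequence and not a measured binding site. Genes with TCACGTG had a median log2 fold change of 0.83 between 42 and 24 weeks in Apoe-/- mice (9 genes), and the 20 genes whose promoters lacked it had 1.11. The order was the other way for time in Apoe-/-Mif-/- mice (0.41 with and 0.22 without) and for Mif deletion at 42 weeks (0.06 and -0.43), and for Mif deletion at 24 weeks it was 0.18 and 0.34.

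Levels per length of transcript ran over a wide range. On the scale of CPM per kb of exon, Cd63, a tetraspanin of late endosomes and lysosomes, was highest with a median of 1300 over the 16 libraries. Psap, the precursor of the saposins that help glycolipid hydrolases, followed with 1050 and Grn, which encodes the progranulin precursor, with 635. Atp6v0b, a proteolipid of the V0 rotor ring, led the pump genes with 570, and Hexa, the alpha subunit of beta-hexosaminidase, led the hydrolases with 543. Subunits that occur together in a pump did not have equal levels: Atp6v1a, the catalytic subunit of V1, had a median of 6.34 CPM per kb and Atp6v1b2, its partner in the V1 head, 110. At the low end were Tfeb at 5, Npc1 at 1.66 and Mitf at 0.465 CPM per kb, and Mitf had no count in 3 libraries. Exon lengths were those of the GENCODE M21 annotation and give only a rough guide, since the annotation behind the counts was not given in the sources used here.

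**Figure D1:**
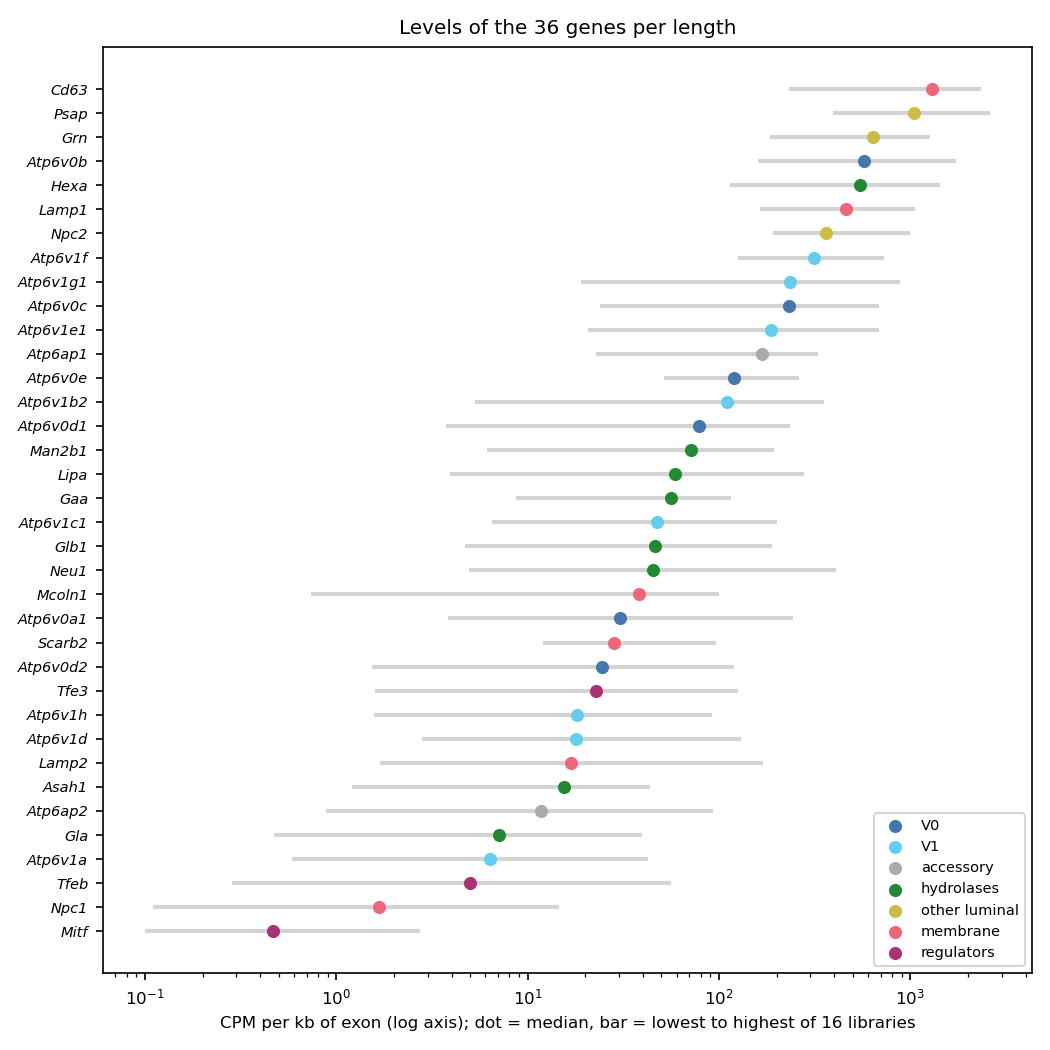
Level of each of the 36 genes in CPM per kb of exon on a log axis, with the median (dot) and the lowest to highest (bar) of 16 libraries, coloured by role. Cd63 and Psap have the highest medians (1300 and 1050), and Tfeb, Npc1 and Mitf the lowest (5, 1.66 and 0.465).

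By the median of each role, the luminal proteins varied least among mice of a group. The median within-group SD on the log2 scale was 0.62 for Psap, Grn and Npc2, 1.43 for the 16 pump genes, 1.63 for the 8 hydrolases, 1.13 for the 6 membrane proteins and 2.02 for the 3 regulators, against 2.07 over all 10634 genes tested. Single genes of other roles had SDs as low or nearly so, such as Atp6v1f (0.6), Atp6v0e (0.63) and Lamp1 (0.68). The tests that follow used their own estimates of the spread between mice treated alike, and not these SDs of log2 CPM. Pairs of pump genes were hardly correlated over the 16 libraries (median Spearman rho of 0.11 over 120 pairs), as were pairs of hydrolases (0.01 over 28 pairs), while the 3 luminal proteins were more alike (0.61 over 3 pairs). Pairs of a member with any other tested gene had a median of 0. These libraries share tissue, depth and 4 groups, so the values are descriptions.

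The pattern of all 36 genes by mouse is shown as a heat map. The 42-week Apoe-/- libraries were above the gene median for most pump genes, and the row of Mcoln1 stood out with low values in the same 4 libraries.

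**Figure D2:**
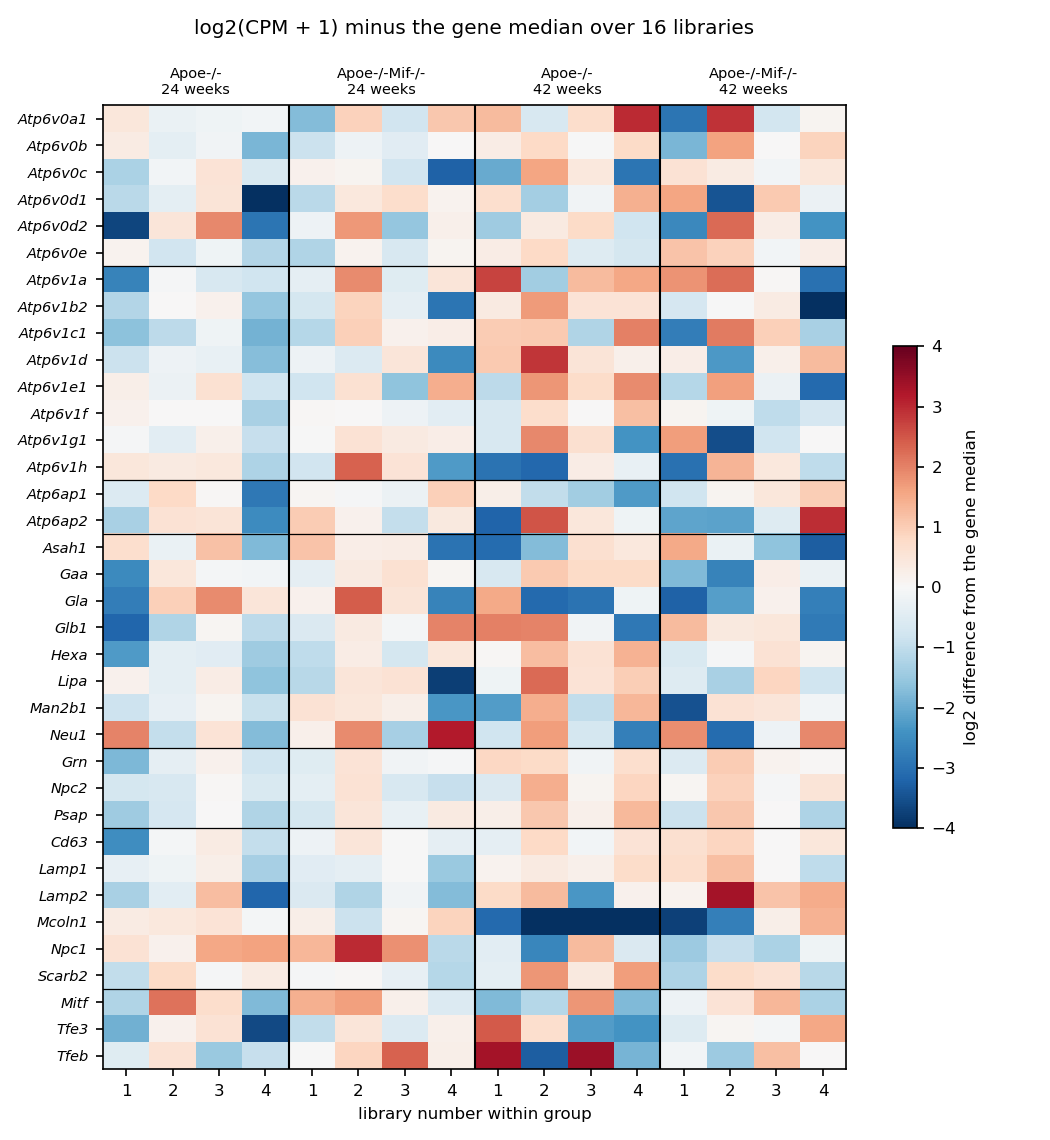
Each cell is log2(CPM + 1) of a gene in a library minus the median of that gene over 16 libraries, with groups separated by vertical lines and roles by horizontal lines (V0, V1 and accessory pump genes, hydrolases, other luminal proteins, membrane proteins, regulators). Mcoln1 is blue in the 4 Apoe-/- libraries at 42 weeks (1.51 to 8.18 CPM), and most other rows vary within each group.

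Of the 4 pairwise comparisons, time on the diet in Apoe-/- mice gave the widest median shift of these genes. Between 24 and 42 weeks 27 of 36 had a log2 fold change above 0, with a median of 0.91, against 47.3% of all tested genes and a median of -0.12. Medians by role were 0.66 for V0, 1.26 for V1, 0.92 for the hydrolases, 1.11 for the luminal proteins, 0.63 for the membrane proteins and 1.35 for the regulators. No single gene passed edgeR's quasi-likelihood test (0 of 36 at a Benjamini-Hochberg adjusted p under 0.05), and the percentage called over all 10634 genes was also 0%. At an unadjusted p under 0.05 there were 4 of 36, 3 higher and 1 lower, against 12.2% of all genes (3.87% higher and 8.36% lower). The groups did not overlap for 4 genes that were higher at 42 weeks (Hexa, Psap, Atp6v1d and Atp6v1b2), where the background was 1.06% of all genes, and for 1 that was lower (Mcoln1), where it was 3.09%. DESeq2, another count test, called 3 of 35 (Hexa, Atp6v1d and Mcoln1) against 4.41% of all genes, and limma voom and limma on the deposited log2 values called 0 of 36.

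In that comparison Apoe-/- libraries 1 and 4 at 24 weeks carried few macrophage transcripts. The summed level of 18 macrophage markers was 2190 and 3820 CPM there, 9480 and 17800 CPM in libraries 2 and 3, and 15100 to 37900 CPM in the 4 Apoe-/- libraries at 42 weeks. Every one of the 18 markers was detected in these 8 libraries except 1 in library 1 at 24 weeks. With time in Apoe-/- mice 16 of the 18 had a log2 fold change above 0, with a median of 1.39. Without libraries 1 and 4 the median log2 fold change was 0.59 for the pump genes and 0.51 for the hydrolases, and 26 of 36 genes had a value above 0, against 52.5% of all genes. What part macrophage content has in the remaining difference was not tested.

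**Figure D3:**
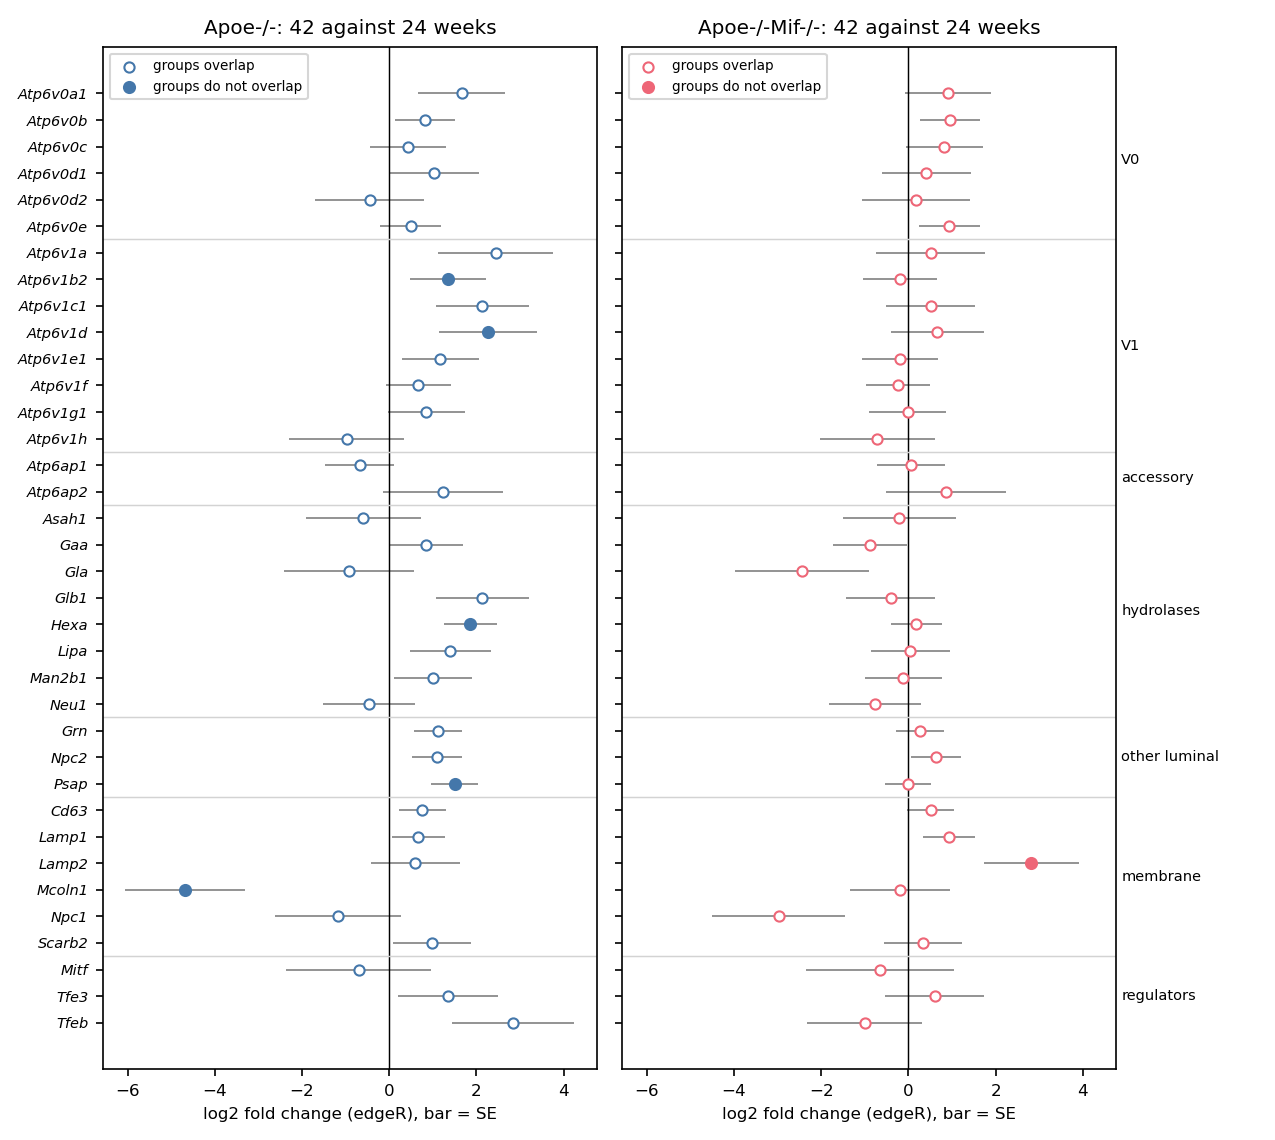
Log2 fold change of 42 against 24 weeks for each of the 36 genes, in Apoe-/- mice on the left and Apoe-/-Mif-/- mice on the right, with bars for the SE of the edgeR fit and filled points where the 4 libraries of one time lie wholly above or below those of the other. On the left 27 of 36 points lie above 0 and 5 are filled, and on the right 20 of 36 lie above 0 and only Lamp2 is filled.

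None of the V0 genes passed the test for time on the diet. Of 6, 5 had a log2 fold change above 0 in Apoe-/- mice, and in Apoe-/-Mif-/- mice 6 of 6, with a median of 0.86. The mean log2 CPM of the V0 genes changed by 0.74 in Apoe-/- and 0.29 in Apoe-/-Mif-/- mice, against a pooled within-group SD of 0.65. Atp6v0d1, the widely expressed d subunit that links the rotor to the stalk, was at 60.2, 96.6, 181 and 6.06 CPM in Apoe-/- mice at 24 weeks and at 202, 49.3, 116 and 341 CPM at 42 weeks. Without Mif the values were 59.7, 172, 209 and 140 CPM at 24 weeks and 385, 10.8, 266 and 108 CPM at 42 weeks. Every pair of groups overlapped. Atp6v0c, the proteolipid that forms most of the rotor ring, was at 119, 268, 427 and 190 CPM, then 71.5, 867, 389 and 37.2 CPM in Apoe-/- mice, and at 324, 311, 169 and 30.1 CPM, then 430, 365, 270 and 401 CPM in Apoe-/-Mif-/- mice. The last group was the only one with narrow values (mean 367 ± 69.5, SD, n = 4). Counts of 2 Atp6v0c pseudogenes came to 1.02% of those of Atp6v0c over all libraries together and to 0% to 1.82% in single libraries.

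Atp6v0d2, the d subunit known from osteoclasts and inflammatory macrophages, differed between mice far more than between groups. It was at 3.92, 87.1, 235 and 7.28 CPM in Apoe-/- mice at 24 weeks and at 22.5, 79.7, 106 and 35.2 CPM at 42 weeks. Mice of the other genotype had 52.7, 207, 20.3 and 71.3 CPM, then 9.47, 301, 76.2 and 10.8 CPM. Libraries 1 and 4 of Apoe-/- mice at 24 weeks, those with few macrophage transcripts, had the lowest values of all 16. Its Spearman rho with the macrophage score over 16 libraries was 0.59, against 0.29 for Atp6v0d1. A list of 10 osteoclast markers, which includes genes that macrophages also make, had 4 to 8 members detected and summed to 244 to 2250 CPM. The remaining V0 genes, Atp6v0a1, Atp6v0b and Atp6v0e, had log2 fold changes with time of 1.66, 0.83 and 0.49 in Apoe-/- and 0.91, 0.96 and 0.94 in Apoe-/-Mif-/- mice. Their SEs were 0.69 to 1, and all their groups overlapped. Atp6v0a1 was at 15.4, 917, 73.6 and 133 CPM and Atp6v0b at 159, 1730, 580 and 1050 CPM in Apoe-/-Mif-/- mice at 42 weeks. The highest value of each came from library 2, which held under 1000000 counts. Library 4 of Apoe-/- mice at 42 weeks held 25.9% of all Atp6v0a1 CPM.

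Of the 2 sectors, V1 had the larger median log2 fold change with time in Apoe-/- mice (1.26 against 0.66 for V0). By mean log2 CPM the change in V0 minus V1 was -0.19, below the pooled within-group SD of 0.46. Of the 8 V1 genes, 7 had a log2 fold change above 0 between 24 and 42 weeks in Apoe-/- mice. In Apoe-/-Mif-/- mice it was 3 of 8, with a median of -0.11. Atp6v1b2, which makes the noncatalytic sites of the head, was at 138, 310, 352 and 105 CPM in Apoe-/- mice at 24 weeks and at 399, 1000, 449 and 456 CPM at 42 weeks, with no overlap. Its log2 fold change was 1.35 ± 0.87 (SE, edgeR adjusted p = 0.557), and 0.78 without Apoe-/- libraries 1 and 4 at 24 weeks. The values were 189, 569, 242 and 40.4 CPM, then 194, 309, 389 and 15 CPM in Apoe-/-Mif-/- mice. At 42 weeks the 4 Apoe-/-Mif-/- libraries lay below the 4 Apoe-/- libraries, with a log2 fold change of -1.35 ± 0.87 (edgeR adjusted p = 0.416).

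Atp6v1a, which splits ATP, was at 3.43, 26, 16.8 and 15.2 CPM in Apoe-/- mice at 24 weeks and at 180, 9.74, 66.3 and 79.8 CPM at 42 weeks. Arteries without Mif had 21, 103, 18.9 and 37.7 CPM, then 96.6, 131, 27.9 and 2.5 CPM. In both genotypes 1 library at 42 weeks lay below all or most at 24 weeks, so the groups overlapped. Atp6v1d, a subunit of the central stalk, was at 19.1 to 56.5 CPM at 24 weeks and 73.7 to 477 CPM at 42 weeks in Apoe-/- mice, a 4.78-fold higher fitted level (log2 2.26 ± 1.12, edgeR adjusted p = 0.41). Library 2 held 32.6% of the Atp6v1d CPM of all 16 libraries, and the log2 fold change without it was 1.33. Atp6v1h, the regulatory H subunit, was the V1 gene with a negative estimate in Apoe-/- mice (-0.97) and had 5.84% of its exon bases under a gene on the other strand, Rgs20, whose reads these libraries cannot separate.

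Of the accessory proteins, Atp6ap1, which is needed for pump assembly, averaged 337 ± 253 CPM at 24 weeks and 213 ± 159 CPM at 42 weeks in Apoe-/- mice, against 452 ± 190 and 469 ± 221 CPM in Apoe-/-Mif-/- mice (SD, n = 4). Atp6ap2, the prorenin receptor, averaged 23.4 ± 19.1 and 55.4 ± 70.1 CPM in Apoe-/- mice, and 33.9 ± 17.4 and 61.3 ± 103 CPM in Apoe-/-Mif-/- mice, at 24 and 42 weeks. All their groups overlapped.

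Among the hydrolases, Hexa, which trims gangliosides and other glycoconjugates, had the clearest difference. In Apoe-/- mice it was at 227, 830, 784 and 406 CPM at 24 weeks and at 1110, 2550, 1620 and 2850 CPM at 42 weeks. All 4 later libraries lay above all 4 earlier ones, and the log2 fold change was 1.86 ± 0.61 (SE, 3.62-fold higher, unadjusted p = 0.00438, edgeR adjusted p = 0.322). In Apoe-/-Mif-/- mice it was at 531, 1330, 673 and 1470 CPM, then at 704, 1060, 1610 and 1170 CPM, which overlapped (log2 fold change 0.18). The difference between these effects was not called (interaction -1.67 ± 0.84, edgeR adjusted p = 0.361). Without Apoe-/- libraries 1 and 4 at 24 weeks the value in Apoe-/- mice was 1.31.

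Lipa, lysosomal acid lipase, which frees cholesterol from the esters of ingested lipoproteins, had no such separation. It was at 196, 132, 212 and 55.8 CPM in Apoe-/- mice at 24 weeks and at 151, 824, 250 and 345 CPM at 42 weeks. The Apoe-/-Mif-/- mice had 79.4, 240, 256 and 11.7 CPM, then 121, 68.9, 315 and 99.3 CPM. A single mouse, library 2 of Apoe-/- mice at 42 weeks, held 24.5% of all Lipa CPM. Glb1, lysosomal beta-galactosidase, known also as the enzyme behind staining of senescent cells, was at 11.3, 47.2, 116 and 52.4 CPM, then 454, 437, 100 and 14.2 CPM in Apoe-/- mice, and at 73.7, 143, 105 and 444 CPM, then 266, 145, 151 and 14.6 CPM in Apoe-/-Mif-/- mice. The groups overlapped, and 6.89% of Glb1 exon bases are shared with Tmppe on the same strand.

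Gla, alpha-galactosidase A, went the other way in point estimates. It was at 2.45, 44.4, 85.5 and 31.5 CPM in Apoe-/- mice at 24 weeks and 65.4, 1.72, 2.02 and 19.6 CPM at 42 weeks. Gla values without Mif were 25.4, 125, 32.1 and 2.69 CPM, then 1.49, 4.05, 25.5 and 2.5 CPM, with a log2 fold change of -2.44 ± 1.53 (edgeR adjusted p = 0.503). The values rest on few reads, with 3, 3, 110 and 6 counts in the last group. Gaa, acid alpha-glucosidase, and Man2b1, lysosomal alpha-mannosidase, had log2 fold changes with time of 0.84 and 1 in Apoe-/- mice and -0.89 and -0.12 in Apoe-/-Mif-/- mice. Asah1, acid ceramidase, and Neu1, the lysosomal sialidase, had -0.59 and -0.46, then -0.21 and -0.77, with SEs of at least 1.05.

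The within-group SDs of Psap, Grn and Npc2 on the log2 scale were 0.72, 0.61 and 0.62. Psap was at 1080, 1820, 2880 and 1260 CPM in Apoe-/- mice at 24 weeks and at 3420, 6070, 3340 and 7150 CPM at 42 weeks, with no overlap. The log2 fold change was 1.50 ± 0.53 (SE, 2.83-fold higher, edgeR adjusted p = 0.322). Without Mif, Psap was at 1770, 4030, 2340 and 3690 CPM, then at 1570, 6070, 2880 and 1230 CPM, with a log2 fold change of -0.01 ± 0.52. The interaction was -1.51 ± 0.74 (unadjusted p = 0.0472, edgeR adjusted p = 0.343). It was -2.39 without the 2 libraries of under 1000000 counts and -1.13 without Apoe-/- libraries 1 and 4 at 24 weeks.

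Grn was at 431, 1150, 1670 and 853 CPM in Apoe-/- mice at 24 weeks and at 2610, 2540, 1350 and 2370 CPM at 42 weeks. Its later values lay above the earlier ones but for library 3. Grn was at 1050, 2150, 1350 and 1430 CPM, then at 1020, 2970, 1650 and 1540 CPM in Apoe-/-Mif-/- mice. Npc2, which hands cholesterol to the membrane protein encoded by Npc1, was at 728, 765, 1220 and 779 CPM, then 791, 3290, 1270 and 2160 CPM in Apoe-/- mice, and at 917, 1790, 759 and 631 CPM, then 1250, 2260, 1160 and 1690 CPM in Apoe-/-Mif-/- mice. The log2 fold changes of Grn and Npc2 with time were 1.11 ± 0.55 and 1.10 ± 0.58 in Apoe-/- mice and 0.26 ± 0.55 and 0.63 ± 0.57 in Apoe-/-Mif-/- mice.

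Mcoln1 encodes mucolipin, a cation channel that releases calcium from the lysosome, and it departed furthest from the rest. It was at 99.4, 106, 114 and 74.9 CPM in Apoe-/- mice at 24 weeks and at 8.18, 2.58, 1.51 and 4.06 CPM at 42 weeks. These are 203, 646, 1084 and 247 counts against 4, 9, 6 and 6, so the later level rests on few reads in all 4 libraries. The fitted level was 25.6-fold lower (log2 fold change -4.68 ± 1.37, SE, unadjusted p = 0.00152, edgeR adjusted p = 0.322), and it was between -5.08 and -4.39 when each library was left out in turn. DESeq2 called it (adjusted p = 0.0069). In Apoe-/-Mif-/- mice Mcoln1 was at 91.5, 42.6, 81.9 and 146 CPM at 24 weeks and at 4.98, 10.8, 93.1 and 206 CPM at 42 weeks.

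At 42 weeks Apoe-/-Mif-/- libraries 1 and 2 (4.98 and 10.8 CPM) were thus close to the Apoe-/- libraries, whereas library 3 lay within and library 4 above the 24-week values. The genotype comparison at 42 weeks had a log2 fold change of 4.36 ± 1.35 (20.5-fold higher, edgeR adjusted p = 0.176), the groups overlapped, and DESeq2 called it (adjusted p = 0.00332). The interaction was 4.48 ± 1.73 (edgeR adjusted p = 0.218). Over the 16 libraries the Spearman rho of Mcoln1 was -0.35 with the macrophage score, the lowest of the 36 genes, and its median rho with the other 35 genes was -0.19.

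**Figure D4:**
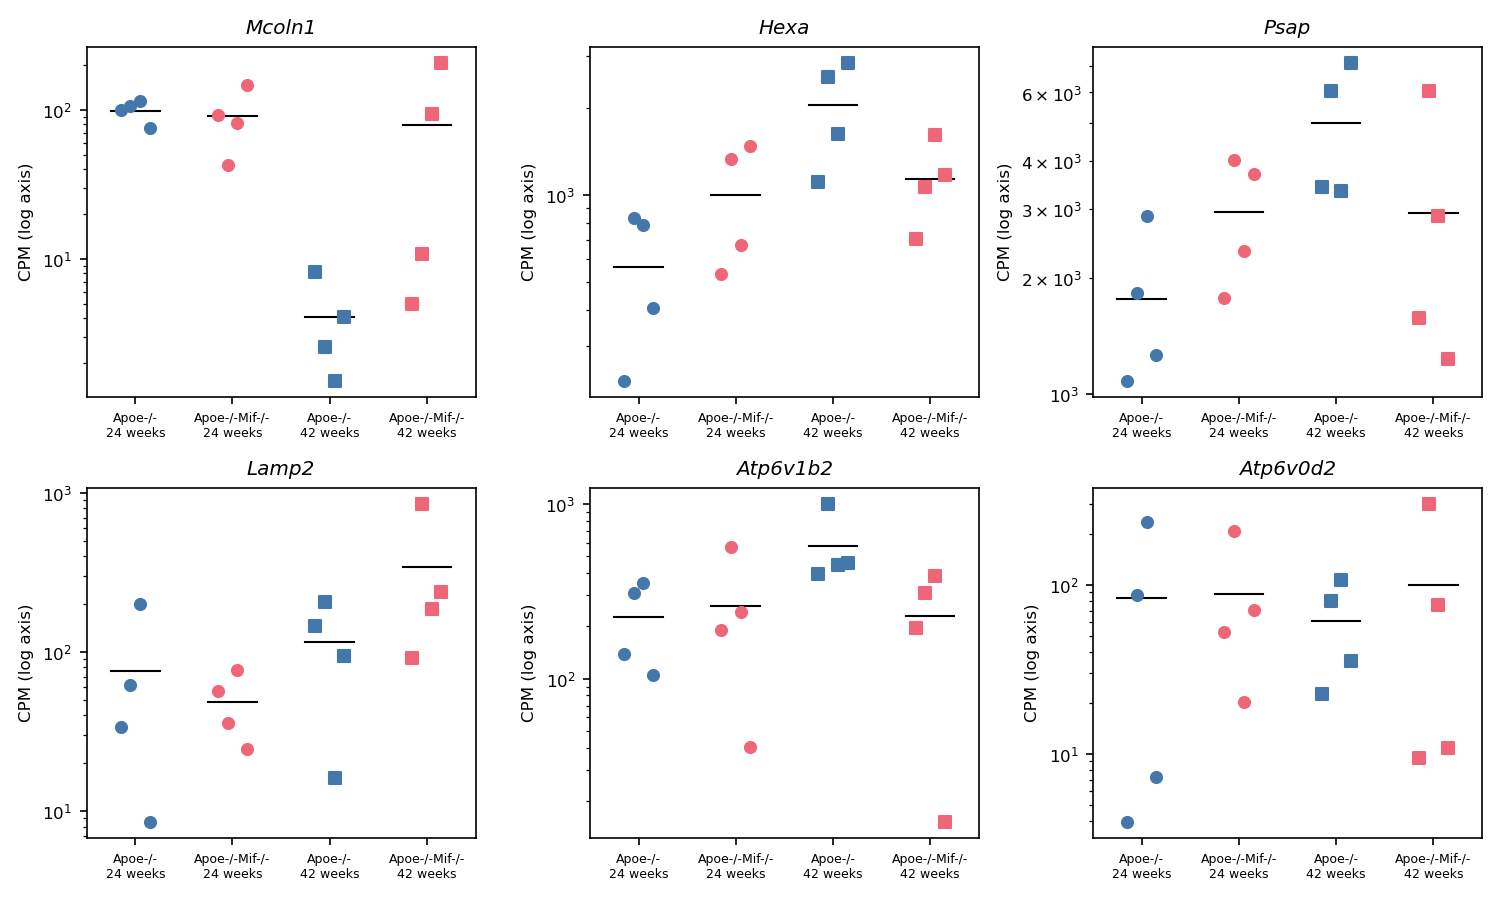
CPM on a log axis in each library for 6 of the genes, by group, with a line at the group mean of 4 mice (circles 24 weeks, squares 42 weeks, blue Apoe-/-, red Apoe-/-Mif-/-). Mcoln1 is at 1.51 to 8.18 CPM in Apoe-/- mice at 42 weeks and at 74.9 to 114 CPM at 24 weeks, Hexa, Psap and Atp6v1b2 lie higher at 42 than at 24 weeks without overlap in Apoe-/- mice, and Atp6v0d2 overlaps between all groups.

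Lamp2, a main glycoprotein of the lysosomal membrane that also serves autophagy, differed most in Apoe-/-Mif-/- mice. It was at 56.5, 36, 76.8 and 24.7 CPM at 24 weeks and at 92.2, 852, 185 and 239 CPM at 42 weeks, with no overlap and a log2 fold change of 2.82 ± 1.09 (SE, 7.04-fold higher, edgeR adjusted p = 0.272; DESeq2 adjusted p = 0.0102). Library 2 of the later group, with 852 CPM, held under 1000000 counts, and the log2 fold change without it was 1.93. The same library had the highest summed white adipocyte markers of the 16 (29500 CPM), whose part in the Lamp2 value was not tested. With Mif, Lamp2 was at 33.8, 62.2, 199 and 8.49 CPM, then at 145, 205, 16.1 and 94.7 CPM, which overlapped. Its close relative Lamp1 was at 827, 922, 1220 and 406 CPM, then 1130, 1330, 1180 and 1730 CPM in Apoe-/- mice, and at 744, 802, 1020 and 364 CPM, then 1670, 2370, 1040 and 504 CPM in Apoe-/-Mif-/- mice. Its log2 fold changes with time were 0.67 ± 0.60 and 0.93 ± 0.60, and 7.94% of its exon bases lie under Grtp1 on the other strand.

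Cd63 was at 338, 1790, 2360 and 971 CPM in Apoe-/- mice at 24 weeks and 1450, 3300, 1750 and 2740 CPM at 42 weeks. The Apoe-/-Mif-/- values of Cd63 were 1620, 2650, 1850 and 1480 CPM, then 2940, 3410, 1910 and 2560 CPM, and both pairs of groups overlapped. Npc1, the membrane protein that exports cholesterol from the lysosome, was scarce, with 22.9, 75.8, 33.3 and 3.59 CPM in Apoe-/-Mif-/- mice at 24 weeks and 2.49, 4.05, 3.02 and 7.51 CPM at 42 weeks (log2 fold change -2.98 ± 1.53, edgeR adjusted p = 0.403). In Apoe-/- mice Npc1 was at 13.2, 9.83, 26.8 and 28.2 CPM, then at 6.13, 0.573, 22.2 and 5.41 CPM. Npc1 and Npc2, which act in sequence, therefore had fold changes of opposite sign with time in both genotypes (-1.17 and 1.10 in Apoe-/-, -2.98 and 0.63 in Apoe-/-Mif-/- mice on the log2 scale). Scarb2, a membrane protein that carries glucocerebrosidase to lysosomes, had log2 fold changes of 0.98 ± 0.90 and 0.33 ± 0.89.

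The 3 regulators were scarce and variable. Tfeb was at 14.2, 30.3, 6.55 and 10 CPM in Apoe-/- mice at 24 weeks and at 211, 1.15, 226 and 4.74 CPM at 42 weeks. The later group thus held 2 high and 2 low mice, and the log2 fold change of 2.85 ± 1.40 (SE, edgeR adjusted p = 0.408) describes neither pair. Without Mif, Tfeb was at 19.7, 37.2, 106 and 23.8 CPM, then 18.4, 6.75, 47.1 and 20.4 CPM. The genotype comparison at 42 weeks had a log2 fold change of -2.24 ± 1.37 (edgeR adjusted p = 0.388), which was 0 with limma voom.

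Tfe3 was at 21.1, 91.5, 122 and 5.76 CPM, then 456, 130, 16.6 and 14.9 CPM in Apoe-/- mice, and at 41.3, 116, 55.3 and 93.8 CPM, then 57.3, 86.5, 77.6 and 243 CPM in Apoe-/-Mif-/- mice. Mitf was at 0.49, 14.6, 4.54 and 0 CPM, then 0, 0.573, 10.8 and 0 CPM in Apoe-/- mice, and at 8.26, 9.75, 2.95 and 1.35 CPM, then 1.99, 4.05, 7.66 and 0.417 CPM in Apoe-/-Mif-/- mice. The high Tfe3 mouse (library 1) and the high Tfeb mice (libraries 1 and 3) of the 42-week Apoe-/- group were not those with the highest Hexa or Psap (libraries 2 and 4). These factors are controlled largely by where in the cell they are, which transcript counts do not show.

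The pump was compared with the hydrolases within each library, as the mean log2 CPM of the 16 pump genes minus that of the 8 hydrolases. The pump mean was 6.57 ± 0.84 at 24 weeks and 7.32 ± 0.33 at 42 weeks in Apoe-/- mice, against 7.01 ± 0.52 and 6.90 ± 0.45 in Apoe-/-Mif-/- mice (SD, n = 4). The hydrolase mean went from 6.62 ± 0.74 to 7.03 ± 0.44 in Apoe-/- and from 7.09 ± 0.67 to 6.43 ± 0.57 in Apoe-/-Mif-/- mice. Their difference per library was 0.38, 0.21, -0.19 and -0.61 in Apoe-/- mice and -0.32, -0.14, -0.33 and 0.48 in Apoe-/-Mif-/- mice at 24 weeks. At 42 weeks it was 0.21, 0.02, 0.56 and 0.36 in Apoe-/- mice and 0.03, 1.38, -0.06 and 0.53 in Apoe-/-Mif-/- mice. By this score the pump was above the hydrolases in 4 of 4 and 3 of 4 mice at 42 weeks (Apoe-/- then Apoe-/-Mif-/-). At 24 weeks it was above in 2 of 4 and 1 of 4, and all groups overlapped. The CPM were not scaled for gene length, so a score of 0 does not mean equal levels. By summed CPM the pump was above the hydrolases in every library, at 1.16 to 3.75 times.

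Group means of the difference were -0.05 ± 0.44 and 0.29 ± 0.23 in Apoe-/- mice and -0.08 ± 0.38 and 0.47 ± 0.66 in Apoe-/-Mif-/- mice, at 24 and 42 weeks (SD, n = 4). The 42-week mean was 0.34 higher than the 24-week mean in Apoe-/- and 0.55 higher in Apoe-/-Mif-/- mice, against a pooled within-group SD of 0.46. The difference between genotypes was -0.02 at 24 and 0.18 at 42 weeks. The 42-week mean in Apoe-/-Mif-/- mice was 0.17 without library 2, which held under 1000000 counts.

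The sign of the time difference in Apoe-/- mice depended on how the genes were weighted. The log2 ratio of summed CPM gave -0.42 and the median over genes -0.27, where the mean log2 gave 0.34. Hexa alone made up 38.1% ± 12.7 of hydrolase CPM at 24 weeks and 57% ± 7.96 at 42 weeks in Apoe-/- mice, and 40.6% ± 5.35 and 53% ± 8.15 in Apoe-/-Mif-/- mice (SD, n = 4). The 7 other hydrolases together averaged 869 ± 263 and 1580 ± 879 CPM in Apoe-/- and 1380 ± 376 and 986 ± 228 CPM in Apoe-/-Mif-/- mice. Summed CPM of the pump was 1.97 ± 0.517, 1.46 ± 0.21, 1.45 ± 0.24 and 2.27 ± 1.08 times that of the hydrolases (Apoe-/- and Apoe-/-Mif-/- at 24, then at 42 weeks).

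**Figure D5:**
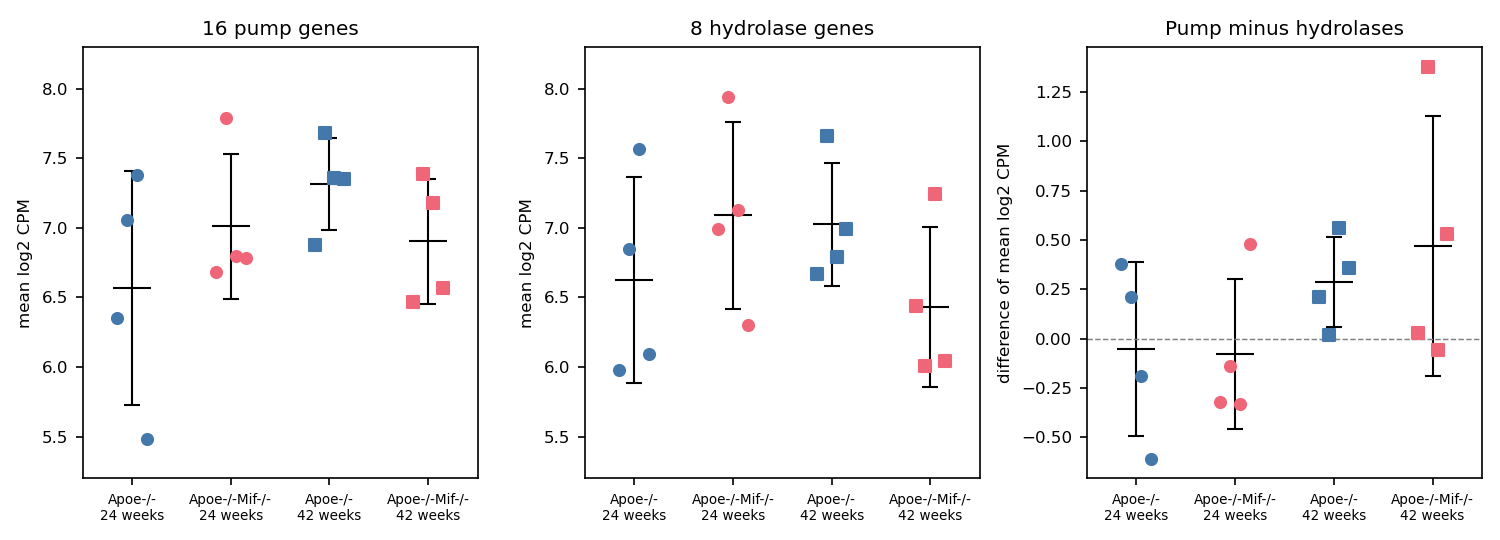
Mean log2 CPM of 16 pump genes (left), of 8 hydrolases (middle) and their difference (right) in each library, with group mean and SD of 4 mice (circles 24 weeks, squares 42 weeks). The difference averages -0.05 and -0.08 at 24 weeks and 0.29 and 0.47 at 42 weeks, and all groups overlap.

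Within the pump, the V0 mean exceeded the V1 mean by 0.66 ± 0.39 and 0.59 ± 0.41 at 24 weeks and by 0.47 ± 0.18 and 1.23 ± 0.70 at 42 weeks (log2 CPM, Apoe-/- then Apoe-/-Mif-/-, SD, n = 4). At 42 weeks the genotypes differed by 0.75, against a pooled within-group SD of 0.46. Without library 4 of the Apoe-/-Mif-/- mice, the highest of its group, they differed by 0.44, which is below that SD (each library was left out in turn as a step added after the values were seen). The range was 0.56 to 2.16 in Apoe-/-Mif-/- and 0.29 to 0.64 in Apoe-/- mice, so they overlapped. The sum of a sector's transcripts does not give the number of assembled pumps.

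Mif deletion at 24 weeks left no member called (0 of 36, edgeR, against 0.047% of all genes). There were 0 of 36 at an unadjusted p under 0.05 too, where 7.33% of all genes were, and 0 by DESeq2 (2.27% of all genes) and by both limma fits (0%). A log2 fold change above 0 was found for 28 of 36, with a median of 0.34, against 45.1% and -0.18 over all genes. The 3 smallest p-values were those of Glb1 (log2 fold change 1.75 ± 1.05, SE, edgeR adjusted p = 0.81), Psap (0.75 ± 0.52, adjusted p = 0.852) and Hexa (0.83 ± 0.60, adjusted p = 0.86). Without Apoe-/- libraries 1 and 4, those with few macrophage transcripts, 17 of 36 were above 0 and the medians were -0.02 for the pump and 0.07 for the hydrolases. No gene was without overlap in either direction (background 1.55% higher and 2.29% lower).

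At 42 weeks, of 36 genes, 15 had a log2 fold change above 0 in Apoe-/-Mif-/- against Apoe-/- mice, with a median of -0.34, against 51.8% and 0.09 over all genes. Macrophage markers went the same way, with 6 of 18 above 0 and a median of -0.71. What part macrophage content has in the shift of the 36 genes was not tested. The median was 0.12 for V0, -0.62 for V1 (7 of 8 below 0), -0.82 for the hydrolases (6 of 8 below 0), -0.30 for the luminal proteins and 0.14 for the membrane proteins. edgeR called 0 of 36 (0% of all genes), DESeq2 called Mcoln1 (1 of 36, against 9.94%), and 1 of 36 had an unadjusted p under 0.05, against 17.3%. The pump median ran from -0.61 to 0.08 when each library was left out in turn, with the highest value without library 4 of the Apoe-/- mice. Groups did not overlap for Atp6v1b2 alone (background 1.03% lower, 1.17% higher). The count was 5 without the shallow library 1 of the Apoe-/- mice, a setting for which the share over all genes was not counted.

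For time on the diet in Apoe-/-Mif-/- mice, 20 of 36 genes were above 0 at 42 against 24 weeks (median 0.11, against 52.9% and 0.12 over all genes), with medians of 0.46 for the pump genes, -0.31 for the hydrolases and 0.42 for the membrane proteins. The direction for the pump was not stable: its median was -0.42 with limma voom and 1.04 with DESeq2, and the change in the mean log2 CPM of the pump was -0.11. edgeR called 0 of 36 against 0.122% of all genes, DESeq2 called Lamp2 (1 of 36, against 6.2%), limma on the deposited log2 values called 0 (0.0209%), and 1 of 36 had an unadjusted p under 0.05, against 13.1%. Lamp2 was also the only member without overlap (background 1.35% higher and 3.03% lower). With DESeq2 size factors as scaling, which moved the median of all genes from 0.12 to 0.54, 29 of 36 were above 0, so that the balance of signs depends on the scaling in this comparison. In the same comparison 12 of 12 tested white adipocyte markers had a log2 fold change above 0 (median 5.13), and edgeR called 3 of them higher at an adjusted p under 0.05. Of 6 brown fat markers 5 were above 0 (median 4.04), and the mitochondrial share of counts was 1.08% to 3.06% at 24 weeks and 1.94% to 8.64% at 42 weeks. Their part in the lysosomal values was not tested.

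The test of whether the genotype effect differed between the times called 0 of 36 (0.686% of all genes). Point estimates were above 0 for 11 of 36 (median -0.75), against 54% of all genes (median 0.26), and 7 of 8 V1 genes and 7 of 8 hydrolases were below 0. Without Apoe-/- libraries 1 and 4 at 24 weeks 15 of 36 were above 0, against 50.5% of all genes. At an unadjusted p under 0.05 were Mcoln1, with a positive value, and Psap, with a negative one, or 2 of 36 against 14.2% of all genes. Next in order came Tfeb (-3.85 ± 1.92, edgeR adjusted p = 0.355). The comparisons averaged over times or genotypes called 0 of 36 each (background 0% for Mif deletion and 0.0376% for time), with 1 and 4 of 36 at an unadjusted p under 0.05 (13% and 13.6%). Averaged over times, the smallest p in Apoe-/-Mif-/- against Apoe-/- mice was that of Mcoln1 (log2 2.12 ± 0.86, edgeR adjusted p = 0.283), followed by Atp6ap1 (0.78 ± 0.56) and Neu1 (1.05 ± 0.75, adjusted p = 0.586 each). Averaged over genotypes, the smallest p for time were those of Mcoln1 (-2.44 ± 0.87, edgeR adjusted p = 0.215), Hexa (1.02 ± 0.42, adjusted p = 0.278) and Lamp2 (1.71 ± 0.74, adjusted p = 0.293). DESeq2 called Mcoln1, Lamp2 and Atp6v1d for time averaged over genotypes (3 of 36, against 5.25%) and 0 for Mif deletion averaged over times (4.32%) and for the interaction (5.74%).

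Macrophage transcripts moved with the means of both the pump and the hydrolases from mouse to mouse. Over the 16 libraries the mean log2 CPM of 18 macrophage markers had a Pearson r of 0.81 (Spearman rho 0.78) with the pump mean and 0.86 (0.90) with the hydrolase mean, and 0.76 and 0.89 after the group means were removed. The pump and hydrolase means had r = 0.69 (rho 0.63), and the difference between them had r = -0.14 (rho -0.33) with the macrophage score. The single genes that followed the score most were Atp6v1b2 (rho 0.79), Lipa (0.75) and Gaa (0.65). The lowest were Atp6v0a1 and Neu1 (-0.15 each) and Mcoln1 (-0.35). Several others were also near 0, among them Atp6ap1 (-0.1), Npc1 (0.01) and Atp6v0b (0.07). With log2 total counts the Spearman rho was 0.59 for the hydrolase mean and 0.35 for the pump mean. These values describe 16 libraries that share tissue, depth and groups, and the part that cell content has in the fold changes was not tested. Summed macrophage markers were at 2190 to 17800 CPM at 24 weeks and 15100 to 37900 CPM at 42 weeks in Apoe-/- mice, against 9500 to 20300 and 10200 to 34600 CPM in Apoe-/-Mif-/- mice. White adipocyte markers, a sign of fat around the vessel, ranged from 457 to 29500 CPM, and their score had r = -0.60 with the hydrolases and -0.28 with the pump.

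Other genes of the pathway were read from lists of 141 further pump, hydrolase, cathepsin, membrane, sorting and nutrient-sensing genes, of which 119 were tested and 0 called by edgeR or by either limma fit in any of the 7 comparisons. DESeq2, in a count added after the values were seen, called 1 of 114 (Tmem199) and 8 of 114 for Mif deletion at 24 and 42 weeks, 3 of 113 and 5 of 114 for time in Apoe-/- and Apoe-/-Mif-/- mice, 3 and 11 of 114 for the averaged comparisons of Mif deletion and time, and 1 (Sort1) for the interaction. For all genes these shares were 2.27%, 9.94%, 4.41%, 6.2%, 4.32%, 5.25% and 5.74% in that order. With time 82 of 119 had a log2 fold change above 0 in Apoe-/- mice (median 0.68), and in Apoe-/-Mif-/- mice 58 of 119 (median -0.04). The smallest p-values in the first were those of Ctsd, the aspartic protease cathepsin D (1800 to 5700 CPM, then 7410 to 15000 CPM, log2 1.81 ± 0.50), and Gpnmb, a glycoprotein of lipid-laden macrophages (302 to 2140, then 2180 to 8330 CPM, log2 2.17 ± 0.67), each with an edgeR adjusted p of 0.322 and no overlap. There were 4 such genes higher and 1 lower of 119, where the background was 1.06% and 3.09%. For Mif deletion at 24 weeks they were Tmem199, a pump assembly factor (log2 -4.90 ± 1.64, adjusted p = 0.319), and Rragd, a Rag GTPase of nutrient sensing (5.55 ± 2.13, adjusted p = 0.454). At 42 weeks 45 of 119 were above 0 (median -0.34), with the smallest p-values for Sort1, the sorting receptor sortilin (4.14 ± 1.36), and Abca2, a lysosomal transporter (-3.48 ± 1.17), each with an edgeR adjusted p of 0.176. Sort1 was at 1070 and 332 CPM in 2 of the Apoe-/-Mif-/- mice at 42 weeks and at 2.87 to 188 CPM in the other 14. For time in Apoe-/-Mif-/- mice the smallest p-values were those of Sort1 (4.32 ± 1.37, edgeR adjusted p = 0.185) and Ppp3ca, a catalytic subunit of calcineurin, the phosphatase that activates TFEB (3.99 ± 1.48, adjusted p = 0.262). Ppp3ca was at 19.7, 44, 6.49 and 1.79 CPM in these mice at 24 weeks and at 1080, 10.8, 23.9 and 29.6 CPM at 42 weeks. Its estimate thus leans on library 1 of the later group. For the interaction they were those of Sort1 (6.12 ± 1.83, edgeR adjusted p = 0.103) and Ctsd (-1.99 ± 0.69, adjusted p = 0.168).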

How the data were processed

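The submitters' processing notes name, for the authors' steps, cutadapt 1.18, Trim Galore 0.6.4, FastQC 0.11.5, STAR 2.5.2b and the build GRCm39. What counted the reads, and against which annotation, is not given in the sources used here. The authors deposited whole-number counts per gene symbol, and a second table of variance-stabilised values on a log2 scale for 9578 genes, which was used as an alternative input and held all 36 genes.

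Of 55359 rows, 1 blank row (at most 0.00257% of a library) and 2 reporter rows were left out. The main test on the counts was the quasi-likelihood test of edgeR 4.0.16 (R 4.3.3) with TMM scaling, filterByExpr (minimum count of 10) and a single fit over 16 libraries with 12 residual degrees of freedom. Benjamini-Hochberg adjusted p-values run over 10634 genes, and a gene was called at an adjusted p under 0.05. Log2 CPM used a prior count of 1. The labels give every library its own mouse. For 4 against 4 libraries an exact permutation test cannot go below 0.0286. No pair of libraries held identical counts. The edgeR fit was tested on simulated counts.

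Alternatives were DESeq2 1.42.0, limma 3.58.1, other scaling and filters, leaving out libraries, and other summaries of pump and hydrolases. Values per library were given for 13 preselected genes and for the 3 members with the smallest p in each pairwise comparison, and for other pathway genes the 2 with the smallest p were named. Glb1, Hexa and Gla were among the members with the smallest p, and Atp6v1d was shown for its lack of overlap with time in Apoe-/- mice. The members and gene lists were chosen with earlier results of these data known. Exon lengths and overlaps came from GENCODE M21 (GRCm38) and promoters from RefSeq (GRCm38.p6).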

Additional observations from a re-analysis of the deposited data

Results flagged for a closer look

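Among 92 sets of 4 libraries examined, 4 held a library set apart from the other 3 by Dixon's test at its 95% critical value for 4 samples, and chance gives about 1 such flag in 20 sets. In Apoe-/- mice at 42 weeks, Grn was lowest in library 3 at 1350 CPM, where the others were at 2370 to 2610 CPM. In the same group Atp6v1b2 was highest in library 2 at 1000 CPM, where the others were at 399 to 456 CPM. Library 2 of that group also had the highest summed macrophage markers of all 16 libraries, 37900 CPM. In Apoe-/- mice at 24 weeks, Npc2 was highest in library 3 at 1220 CPM, where the others were at 728 to 779 CPM. In Apoe-/-Mif-/- mice at 24 weeks, the mean log2 CPM of the 16 pump genes was highest in library 2 at 7.79, where the others were at 6.68 to 6.8.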

How the results depend on the processing

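Of 1247 values recomputed under 31 settings, 1201 were labelled the same, 7 passed the test under DESeq2 only, 38 moved further and 1 lost its direction. Fold changes of single genes were the same if they kept their direction and side of the threshold. Scores and medians were the same if they moved by less than the spread, and counts if they were equal or within a set ratio. Many such counts were 0 called members before and after, as were all 24 for Mif deletion at 24 weeks. No paired analysis was possible because the labels give each library its own mouse and code and no replicate number shared between groups. DESeq2 called 1 member for Mif deletion at 42 weeks, 3 and 1 for time in Apoe-/- and Apoe-/-Mif-/- mice, and 3 for time averaged over genotypes, where edgeR called 0, and over all genes it called 210 to 902 per comparison where edgeR called 0 to 73. The count of called members was 0 in every comparison when any 1 library was left out. The log2 fold change of Tfeb for Mif deletion at 42 weeks was 0 with limma voom.

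The number of members without overlap was 0 for Mif deletion at 42 weeks with size factors and with the deposited log2 values, and 7 without the 2 libraries of under 1000000 counts. Without those it was 9 for time in Apoe-/- mice. Fewer libraries per group make overlap rarer by construction. With each library left out in turn it was 0 to 2 for Mif deletion at 24 weeks, 1 to 5 at 42 weeks, 5 to 9 for time in Apoe-/- and 1 to 3 in Apoe-/-Mif-/- mice. The share over all genes was not counted under any of these settings, so these counts have no background. Shares given earlier hold for the main setting with all 16 libraries only.

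Pump minus hydrolases depended most on the summary. As the log2 ratio of summed CPM it was 0.94 in Apoe-/- and 0.53 in Apoe-/-Mif-/- mice at 24 weeks and 1.06 in Apoe-/-Mif-/- mice at 42 weeks, -0.42 for time in Apoe-/- mice and 0.95 for the interaction. As the median over members it was 0.51 in Apoe-/- mice at 24 weeks, -0.6 for Mif deletion at 24 weeks, -0.27 for time in Apoe-/- mice and 1 for the interaction. With Psap, Grn and Npc2 among the hydrolases it was -1, -1.04, -0.88 and -0.73 in Apoe-/- and Apoe-/-Mif-/- mice at 24, then at 42 weeks. The cause of these shifts was not tested.

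DESeq2 size factors in place of TMM moved the median log2 fold change of all genes from 0.09 to 0.28 for Mif deletion at 42 weeks, from -0.12 to 0.16 and from 0.12 to 0.54 for time in Apoe-/- and Apoe-/-Mif-/- mice, and from 0.01 to 0.36 for time averaged over genotypes. Members above 0 then numbered 17, 27, 29 and 30 of 36, against 15, 27, 20 and 26. For Mif deletion averaged over times they numbered 28 against 18. With limma voom 11 and 14 of 36 were above 0 for Mif deletion at 42 weeks and time in Apoe-/-Mif-/- mice. Without a filter edgeR called 117, 150, 18 and 419 genes in the 4 pairwise comparisons, against 5, 0, 0 and 13. Gla, Npc1 and Mitf rest on few counts in several libraries, which limits the precision of their fold changes.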
